A study of Homo sapiens with 2 samples.

Results

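Actin is the subunit of the filaments that give a cell its shape and drive its movement, and 10 genes that supply, hold or recycle its free subunits were examined in A549, an established line of human lung adenocarcinoma cells. The genes are the thymosins TMSB4X and TMSB10, the profilins PFN1 and PFN2, the cofilins CFL1 and CFL2 with destrin (DSTN), the cyclase-associated protein CAP1, and the cytoplasmic actins ACTB and ACTG1. They were taken by gene symbol from the 24462 distinct symbols of the count tables, and all 10 were found, each on 1 row. The genes were chosen by their role in actin turnover and with their ratios between the treatments already known, above all those of TMSB4X and PFN1, so the direction and size of the ratios are a description here. The study looked at gene expression after silencing of ADGRF4, a receptor of the adhesion G protein-coupled class. One library came from A549 cells transfected with control siRNAs and 1 from A549 cells transfected with ADGRF4 siRNAs. The siRNA dose and the time after transfection are not stated in these sources, and both libraries stand for this single line.

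In cells, actin monomers bound by thymosins are held out of filaments, while monomers bound by profilin are handed to growing filament ends. Cofilins and destrin sever old filaments and return their subunits to the pool, and cyclase-associated protein helps to strip cofilin from those subunits and recharge them. Free actin monomer also binds the coactivators MRTFA and MRTFB, which with the transcription factor SRF drive many actin cytoskeleton genes through a sequence called the CArG box.

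The control library held 10396047 counts and the ADGRF4 siRNA library 9825320. Reads came mainly from the 3' end of each transcript, so a gene's count follows the number of its transcripts more than their length. Levels are given as CPM, a gene's counts relative to its library's size, with the library sizes adjusted by TMM (the trimmed mean of M values), a method that matches the bulk of genes between libraries. With 1 library per treatment there was no replicate check and no test, and the range in parentheses after a value is an exact 95% interval for counting error only. For ADGRF4 the control library gave 3 counts, with an exact Poisson interval from 0.619 to 8.77, and the ADGRF4 siRNA library gave 1 (0.0253 to 5.57). The target lay at or under the 3 counts that a count of 0 allows in each library, so it does not check the labels. All 9 epithelial and A549 markers were read in both libraries, with 139321 and 122595 counts in sum, but single markers differed in both directions. KRT18 had 58990 and 79367 counts and KRT7 7451 and 16919, while ALDH1A1 had 37908 and 13814, AKR1B10 10425 and 1828, and CDH1 1218 and 239. The 4 leukocyte, 4 endothelial, 5 fibroblast and 5 muscle markers had sums between 0 and 82 counts. Most of these came from the muscle marker MYH11 (81 and 33), the fibroblast marker COL1A1 (50 and 45) and the leukocyte marker CD14 (45 and 30). The leukocyte marker CD3E and the muscle markers DES and CKM were at 0 in both. EPCAM, the lowest of the 9 epithelial and A549 markers, had 75 and 38 counts.

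The promoters of TMSB4X, TMSB10 and PFN1, each past 1.5-fold on the lower side, are shown beside that of ACTG1, whose ratio lay inside 1.5-fold. Each is the 250 bases before the annotated start, from RefSeq on GRCh38.p14, on the gene's own strand and 5′ to 3′. Capitals mark a GC box (GGGCGG, or CCGCCC on the other strand), the kind of sequence bound by the SP1 family, and in ACTG1 also the CArG box. The stretch for TMSB4X is chrX:12974860-12975109 on the plus strand, for TMSB10 chr2:84905406-84905655 on the plus strand, for PFN1 chr17:4948531-4948780 on the minus strand and for ACTG1 chr17:81512800-81513049 on the minus strand.
TMSB4X: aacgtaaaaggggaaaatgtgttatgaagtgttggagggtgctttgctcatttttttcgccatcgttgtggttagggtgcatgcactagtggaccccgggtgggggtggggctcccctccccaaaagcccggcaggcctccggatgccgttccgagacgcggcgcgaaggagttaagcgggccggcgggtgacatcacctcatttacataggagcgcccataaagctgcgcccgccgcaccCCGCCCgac
TMSB10: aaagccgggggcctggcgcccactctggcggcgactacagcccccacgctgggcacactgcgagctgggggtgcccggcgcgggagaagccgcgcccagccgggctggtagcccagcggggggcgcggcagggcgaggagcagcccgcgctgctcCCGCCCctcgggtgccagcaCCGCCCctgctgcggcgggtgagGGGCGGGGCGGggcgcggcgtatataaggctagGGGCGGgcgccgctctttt
PFN1: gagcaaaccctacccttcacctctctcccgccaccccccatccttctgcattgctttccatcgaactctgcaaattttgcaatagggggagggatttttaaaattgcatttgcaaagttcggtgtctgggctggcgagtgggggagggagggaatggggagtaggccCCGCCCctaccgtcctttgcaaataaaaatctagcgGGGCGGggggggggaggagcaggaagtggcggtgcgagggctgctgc
ACTG1: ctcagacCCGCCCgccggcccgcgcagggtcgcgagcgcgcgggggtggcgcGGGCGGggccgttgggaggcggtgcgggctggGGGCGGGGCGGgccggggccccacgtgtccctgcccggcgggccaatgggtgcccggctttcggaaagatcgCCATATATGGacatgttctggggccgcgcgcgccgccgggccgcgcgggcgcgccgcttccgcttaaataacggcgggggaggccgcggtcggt
Of the 10 genes, 8 had a promoter in that table, with 11 windows in all; ACTB and PFN2 had none. The CArG box, read the same on either strand, was found in 1 of the 11 windows, that of ACTG1, where it runs from 94 to 85 bases before the start and overlaps no GC box. It was found in 1.16% of all 35116 promoter windows of this length. A GC box was found in 9 of the 11 windows, against 42.6% of all windows, and a TATA motif (TATAAA, or TTTATA on the other strand) in 0 of the 11, against 10.7%. Only these exact letters were searched. The TMSB10 stretch holds tatataag close to the start, that of TMSB4X cataaag and that of ACTG1 taaataa. These TATA-like runs were not counted, so the search does not show that any of these genes lacks a TATA box. TMSB4X has 1 GC box, PFN1 has 2, ACTG1 has 4 and TMSB10 has 5. These matches are letters in a window and were not measured as binding.

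**Figure D1:**
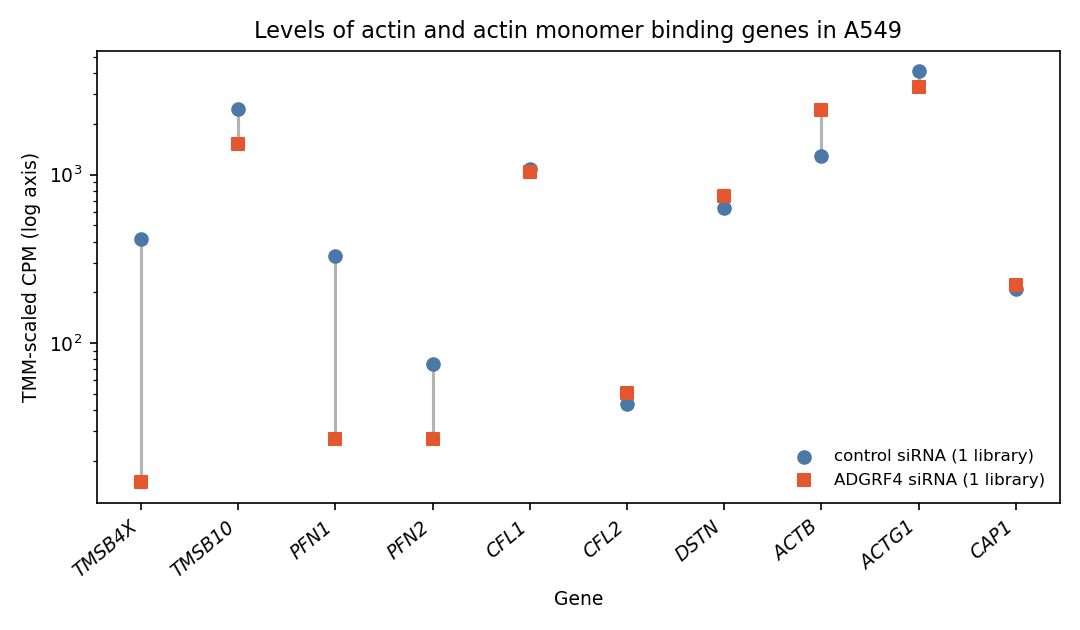
TMM-scaled CPM (log axis) of the 10 genes, with 1 point for the control siRNA library and 1 square for the ADGRF4 siRNA library, joined by a line. TMSB4X and PFN1 have the longest lines, from 412 to 14.9 CPM and from 327 to 26.8 CPM, while CFL1 and CAP1 nearly coincide.

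In the control cells these genes covered a wide range of levels. ACTG1 was the most abundant, at 4105 CPM, and ranked 10 among all symbols of the library. TMSB10 followed at 2444 CPM, ACTB at 1290 CPM and CFL1 at 1083 CPM. DSTN stood at 635 CPM, TMSB4X at 412 CPM, PFN1 at 327 CPM and CAP1 at 210 CPM. PFN2 and CFL2 were the scarcest, at 74.7 and 43.6 CPM. Together the 10 genes made up 1.12% of all counts in the control library and 0.888% after ADGRF4 siRNA.

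All 4 thymosin and profilin genes of the group were lower after ADGRF4 siRNA. The severing genes stayed within 1.5-fold, as did 56.6% of all compared symbols. Of the 10 genes, 4 were at least 1.5-fold lower, 1 was at least 1.5-fold higher and 5 lay between. Among the 11771 symbols that averaged 30 counts or more over both libraries, 22.3% were at least 1.5-fold lower and 21.1% at least 1.5-fold higher. At 2-fold, 3 of the 10 genes were lower and 0 higher, against 10.4% and 7.84% of all compared symbols. Nothing is read from these counts about the group, since its genes were chosen with the ratios known. The median log2 ratio of the 10 genes was -0.19 and that of all compared symbols -0.02. The SD of the 10 ratios was 1.81 on the log2 scale, against 0.77 for all compared symbols.

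**Figure D2:**
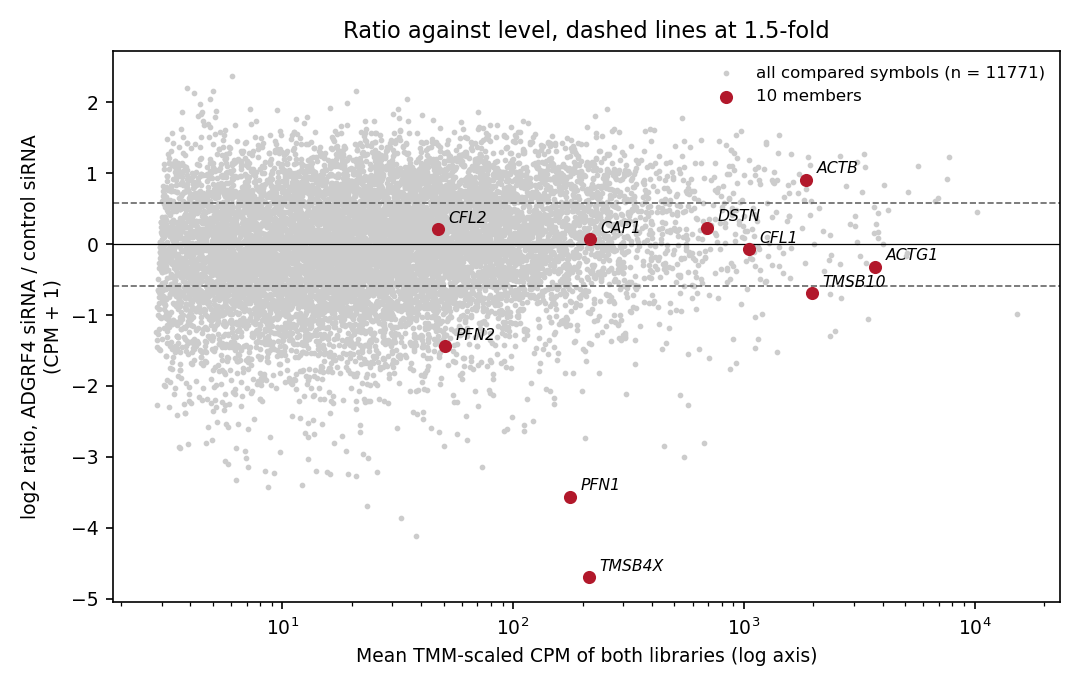
The log2 ratio of ADGRF4 siRNA to control siRNA (CPM + 1) against mean TMM-scaled CPM (log axis), for 11771 compared symbols in grey and the 10 genes in red, with dashed lines at 1.5-fold. TMSB4X, at -4.70, is the lowest point of the plot, PFN1 lies at -3.56, and ACTB, at 0.91, is the only red point above the upper line.

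The thymosins are small peptides that bind actin monomers and keep them from polymerising. TMSB4X had 4512 counts in the control library and 139 after ADGRF4 siRNA, 27.7-fold lower (23.4 to 33.0). On the scale of log2(CPM + 1), its difference of -4.70 was the lowest of the 11771 compared symbols. TMSB10, its close relative, had 26750 and 14119 counts, 1.62-fold lower (1.58 to 1.65). A further 2181 compared symbols had a lower ratio than TMSB10. In the control library there were 5.93 TMSB10 counts for each TMSB4X count (5.74 to 6.12), and after ADGRF4 siRNA there were 102 (86.0 to 121). TMSB4X thus went from 14.4% of thymosin counts (14.0 to 14.8) to 0.975% (0.820 to 1.15), a comparison that does not involve library scaling. Because TMSB10 made up most of the family, the summed thymosin level was 1.87-fold lower (1.83 to 1.91), from 2856 to 1528 CPM.

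Profilins bind actin monomers, exchange their nucleotide and deliver them to filament ends. PFN1, the ubiquitous form, had 3576 counts in the control library and 250 after ADGRF4 siRNA, 12.2-fold lower (10.7 to 13.9). Its log2 ratio of -3.56 ranked 5 from the lowest of the compared symbols. PFN2, the form best known from neurons, gave 818 and 252 counts, 2.77-fold lower (2.40 to 3.20). The 2 profilins differed in level in the control library but not by more than counting error after ADGRF4 siRNA: PFN1 held 81.4% of profilin counts (80.2 to 82.5) in the first and 49.8% (45.3 to 54.3) in the second. Summed profilin was 7.46-fold lower (6.80 to 8.20), at 401 and 53.8 CPM. There were 7.11 thymosin counts for each profilin count (6.89 to 7.34) in the control library and 28.4 (26.0 to 31.1) after ADGRF4 siRNA.

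The severing genes gave small ratios. Cofilin binds the sides of filaments and breaks them, and CFL1 is the form of non-muscle cells. CFL1 had 11852 and 9622 counts, 0.952 times the control level (0.927 to 0.978). CFL2, the form best known from muscle, had 477 and 473 counts, or 1.16-fold higher (1.02 to 1.32). DSTN, a relative of cofilin that also depolymerises filaments, had 6946 and 6958 counts, 1.17-fold higher (1.14 to 1.21). CAP1 had 2304 and 2059 counts, 1.05 times the control level (0.987 to 1.11), an interval that includes equal levels, and its direction turned under total-count scaling. Within the family CFL1 made up 61.5% of counts (60.8 to 62.2) in the control library and 56.4% (55.7 to 57.2) after ADGRF4 siRNA. DSTN made up 36.04% (35.4 to 36.7) and 40.8% (40.1 to 41.5), and CFL2 2.47% (2.26 to 2.70) and 2.77% (2.53 to 3.03). The CFL2 intervals overlap, and those of the other two do not.

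The cytoplasmic actins differed in opposite directions. ACTB, which encodes beta-actin, had 14122 counts in the control library and 22625 after ADGRF4 siRNA, 1.88-fold higher (1.84 to 1.92). ACTG1, which encodes gamma-actin, had 44931 and 30741 counts, 0.803 times the control level (0.791 to 0.814). ACTB therefore made up 23.9% of cytoplasmic actin counts (23.6 to 24.3) in the control library and 42.4% (42.0 to 42.8) after ADGRF4 siRNA. The 2 genes summed to 59053 and 53366 counts. That is 1.06 times the control level (1.05 to 1.07) with TMM scaling, but 0.568% and 0.543% of all counts, so the direction of the sum depends on the scaling. ACTB was higher and ACTG1 lower under every scaling tried.

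**Figure D3:**
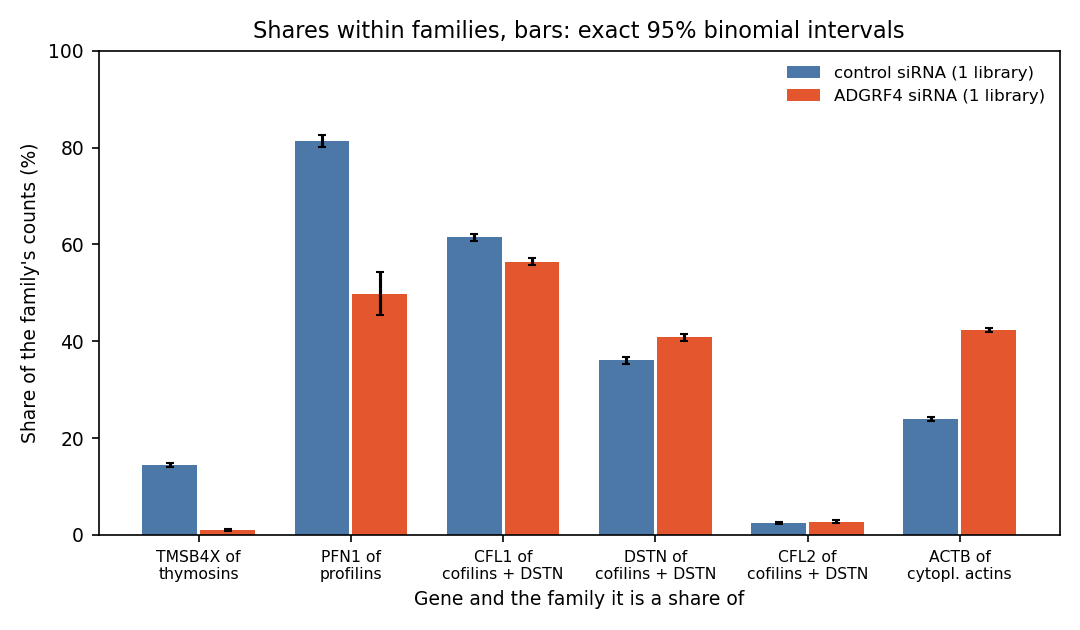
Share of each family's counts held by a gene (percent), in the control siRNA library and the ADGRF4 siRNA library, with exact 95% binomial intervals for counting error. TMSB4X is at 0.975% of thymosin counts, PFN1 at 49.8% of profilin counts and ACTB at 42.4% of cytoplasmic actin counts after ADGRF4 siRNA.

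Set against actin itself, the monomer binders separated into 2 kinds. For each 1 count of cytoplasmic actin there were 0.529 thymosin counts (0.522 to 0.537) in the control library and 0.267 (0.262 to 0.272) after ADGRF4 siRNA. Profilin gave 0.0744 counts per actin count (0.0721 to 0.0767) and 0.00941 (0.00860 to 0.0103). Cofilins with destrin gave 0.326 (0.321 to 0.332) and 0.320 (0.314 to 0.325), and CAP1 gave 0.0390 (0.0374 to 0.0407) and 0.0386 (0.0369 to 0.0403). The intervals of the 2 libraries overlap for the severing genes and for CAP1, and lie apart for thymosins and profilins. These are ratios of transcripts in 2 libraries, not of proteins.

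The ratio between the libraries also varied with GC content at the 3' end, taken over the last 300 bases of a transcript. Across 20 bins of GC content the median log2 ratio ran from -0.35 in the bin with the lowest GC content to 0.84 in that with the highest. Most of the 10 genes lie in the middle of this range: TMSB4X has 42.0% GC, PFN1 48.7%, ACTB 45.0% and ACTG1 41.7%. PFN2 has 32.0% and TMSB10 53.7%, the lowest and the highest of the 10. After each ratio was centred on the median of its bin, TMSB4X stood at -4.60 and PFN1 at -3.72 on the log2 scale, and ACTB at 0.83. TMSB10 moved from -0.69 to -1.18 and PFN2 from -1.44 to -1.15. At 1.5-fold the centred ratios again gave 4 lower genes and 1 higher, against 19.2% and 15.1% of the 11519 symbols with a value. At 2-fold they gave 4 lower and 0 higher, against 9.23% and 3.65%. CFL2 stood at 0.49, DSTN at 0.33, CAP1 at 0.25, CFL1 at -0.17 and ACTG1 at -0.22, all inside 1.5-fold.

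**Figure D4:**
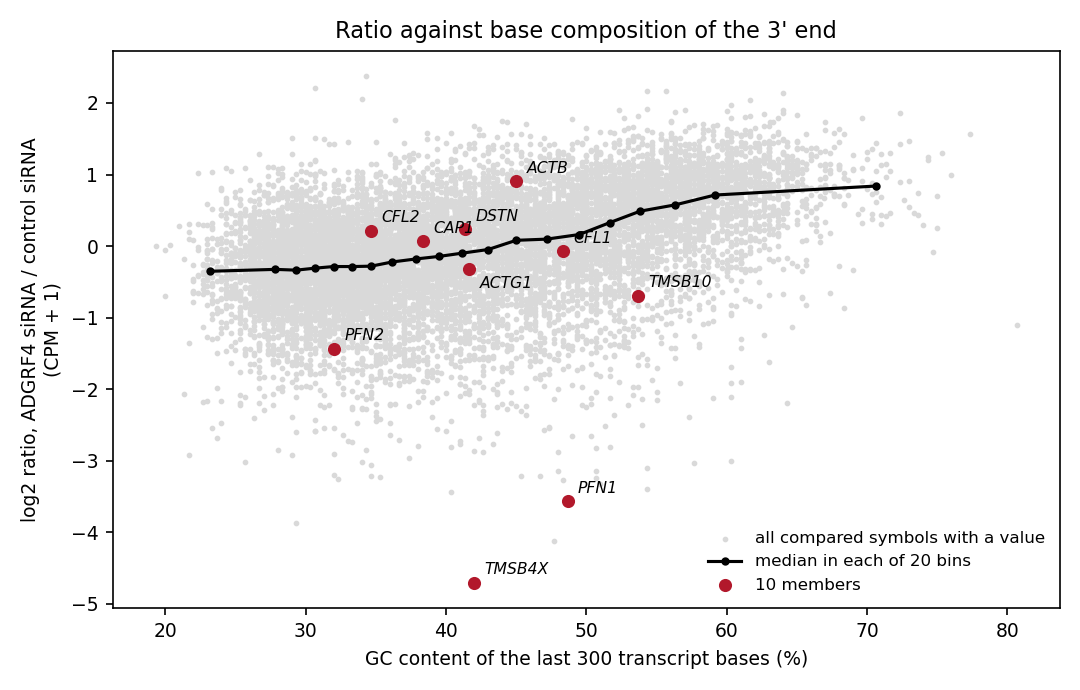
The log2 ratio of ADGRF4 siRNA to control siRNA (CPM + 1) against the GC content of the last 300 transcript bases (percent), for all compared symbols with a value in grey, the medians of 20 bins as a black line and the 10 genes in red. TMSB4X and PFN1 lie far below the line at 42.0% and 48.7% GC, and TMSB10 lies further below the line than below 0.

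Several of these genes have copies or neighbours that can share reads. GENCODE 29 names 5 processed pseudogenes of TMSB4X, 2 of TMSB10, 10 of PFN1, 7 of CFL1, 3 of DSTN, 9 of ACTB, 20 of ACTG1 and 1 of CAP1, and 0 of PFN2 and CFL2. Of these copies, the tables list 1 for PFN1, with 3 and 1 counts, 1 for CFL1, with 7 and 8, 1 for DSTN, with 216 and 235, and 3 for ACTG1, with 100 and 145 in sum. How many reads were placed on other copies is unknown. In the same annotation, exons of PFN1 are overlapped on the other strand by ENO3, a muscle enolase. It had 129 counts in the control library and 136 after ADGRF4 siRNA. Exons of CFL1 are overlapped by MUS81, with 142 and 25 counts, those of CAP1 by PPT1, with 324 and 184, and those of TMSB10 by TRABD2A, with 6 and 16. CFL1 is also overlapped by SNX32, with 0 counts in both libraries. PFN2 is overlapped by the processed pseudogene AC022494.1, which is not among the counted symbols. Whether strand was used in counting is not stated in these sources, and sharing of reads between overlapping genes was not tested. A 3' end protocol also reads a gene by the 3' end its transcripts use, so fewer transcripts and a change of 3' end cannot be told apart.

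The wider actin machinery was described with 9 further lists holding 134 genes, of which 111 passed the limit of 30 counts. In all, 25 (22.5%) were at least 1.5-fold lower after ADGRF4 siRNA, 15 (13.5%) at least 1.5-fold higher and 71 between, with a median log2 ratio of -0.05. The lower share is close to the 22.3% of all compared symbols, and the higher share is below their 21.1%. After GC centring the shares were 22.5% lower and 12.6% higher, against 19.2% and 15.1%.

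Other proteins that bind actin monomers or lie close to them formed a list of 9 genes, of which 5 were compared. Of 5 compared, 3 lay past 1.5-fold on the lower side and 0 on the higher, and the median log2 ratio was -0.88. All compared symbols gave 22.3% lower and 21.1% higher, with a median of -0.02. After GC centring 3 of the 5 were lower and 0 higher (median -1.23), against 19.2% and 15.1% of all symbols. The list is short and was chosen with earlier results known, so nothing is read from these counts about monomer binders. The twinfilins TWF1 and TWF2, which bind monomers and cap filament ends, were both lower: TWF1 gave 357 and 77 counts, 3.95-fold lower (3.08 to 5.12), and TWF2 gave 429 and 195, 1.88-fold lower (1.58 to 2.23). COTL1, a coactosin of the cofilin fold, gave 1786 and 621 counts, 2.45-fold lower (2.24 to 2.69). CAP2, the relative of CAP1, gave 462 and 457 counts, 1.16-fold higher (1.02 to 1.32). Of the other actin isoforms only the smooth muscle form ACTA2 passed the limit, with 159 and 177 counts (1.31-fold higher, 1.05 to 1.63).

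Of 17 regulators and cofactors of cofilin compared, 14 lay inside 1.5-fold, 2 were past it on the lower side and 1 on the higher, and the median was 0.03. Of all compared symbols, 56.6% lay inside 1.5-fold. After GC centring, 11 of the 17 lay inside, 4 were lower and 2 higher, against 65.7% of all symbols inside. PDXP, a phosphatase that activates cofilin, was 2.31-fold higher (1.84 to 2.90), and SSH2, a slingshot phosphatase, was 1.98-fold lower (1.44 to 2.77). The kinases PAK1, 1.52-fold lower (1.36 to 1.70), and PAK4, 1.40-fold higher (1.19 to 1.65), act upstream of the LIM kinases. Centring on 3' GC content brought PDXP to a log2 ratio of 0.56 and PAK1 to -0.29, both inside 1.5-fold.

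Genes that cap filaments or nucleate branches held members past 1.5-fold on both sides. As background for each list here, 22.3% of the 11771 symbols lay past 1.5-fold downward and 21.1% upward. With GC centring the background was 19.2% downward and 15.1% upward. Of 15 gelsolin family and capping genes, 4 were lower and 2 higher (median -0.29), and 4 lower and 1 higher after GC centring. CAPZB, the beta subunit of the capping protein, gave 4039 and 974 counts, 3.54-fold lower (3.30 to 3.80). TMOD1, which caps pointed ends, was 3.34-fold lower (2.09 to 5.53), ADD3, an adducin, 1.95-fold lower (1.75 to 2.18), and CAPG 2.11-fold higher (1.88 to 2.38), or 0.35 on the log2 scale after GC centring. Of 10 genes for subunits of the ARP complex, which starts branched filaments, 4 were lower and 1 higher (median -0.38). The 10 include alternative forms of the same subunit, such as ARPC5 and ARPC5L. ARPC3 was 2.94-fold lower (2.68 to 3.23), ACTR3 1.66-fold lower (1.47 to 1.87) and ARPC5 1.64-fold lower (1.51 to 1.79), but ARPC4 gave 2469 and 4030 counts, 1.91-fold higher (1.82 to 2.01). After GC centring 1 of the 10 was lower and 1 higher. Among 15 activators of that complex, 5 were lower and 2 higher (median -0.11), but 3 were lower and 3 higher after GC centring (median 0.06). Cortactin (CTTN) was 2.80-fold lower (2.55 to 3.06), NCKAP1 2.39-fold lower (1.91 to 2.995) and ABI2 1.92-fold lower (1.65 to 2.25), and CYFIP2 was 2.13-fold higher (1.96 to 2.31).

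**Figure D5:**
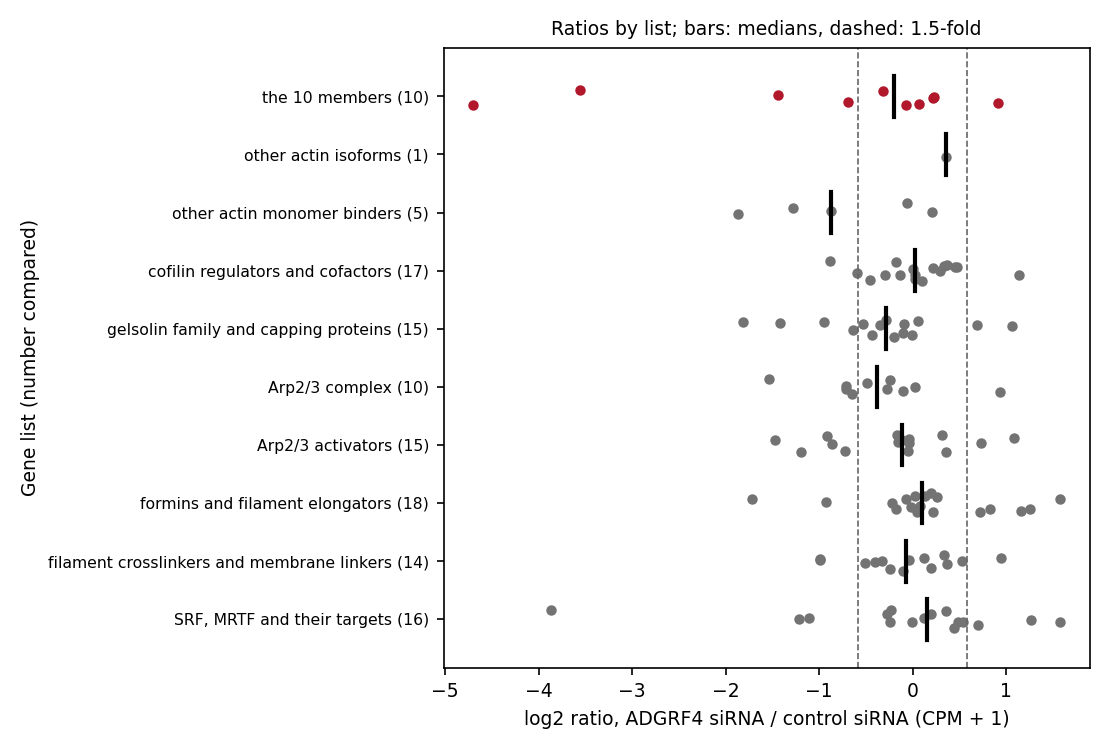
The log2 ratio of ADGRF4 siRNA to control siRNA (CPM + 1) of each compared gene (points), for the 10 genes in red and for 9 lists of the actin machinery in grey, with list medians as black bars and dashed lines at 1.5-fold. TMSB4X lies below all grey points and PFN1 below all but CYR61, and 14 of 17 cofilin regulators lie between the dashed lines.

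Genes that start or lengthen filaments went both ways. Of 18 formins, other nucleators and elongators, 5 were higher and 2 lower (median 0.11), but 3 were higher and 3 lower after GC centring. The shares of all compared symbols were 21.1% higher and 22.3% lower, or 15.1% and 19.2% after GC centring. VASP, which draws on profilin-actin at filament tips, gave 1294 and 330 counts, 3.34-fold lower (2.96 to 3.78), whereas its relative EVL was 2.43-fold higher (2.15 to 2.75). The formin FHOD1 was 2.24-fold higher (2.09 to 2.41) and the nucleator SPIRE2 3.29-fold higher (2.50 to 4.37). Among 14 crosslinkers and membrane linkers, 2 were lower and 1 higher (median -0.07), and 3 lower and 1 higher after GC centring. ACTN4, an alpha-actinin, gave 17501 and 7533 counts, 1.98-fold lower (1.93 to 2.04), the plastin PLS1 2.03-fold lower (1.70 to 2.45), filamin FLNA 1.92-fold higher (1.86 to 1.99) and ezrin (EZR) 1.44-fold higher (1.38 to 1.504). The higher ratio of FLNA came to 0.10 on the log2 scale after GC centring.

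The last list held SRF, its actin-sensing MRTF coactivators and genes known as SRF targets. It gave 3 higher, 3 lower and 10 between among 16 compared, with a median of 0.16, and 3 higher and 4 lower after GC centring. All compared symbols gave 21.1% higher and 22.3% lower, or 15.1% and 19.2% after GC centring. SRF itself gave 1760 and 641 counts, 2.34-fold lower (2.14 to 2.57). CYR61 was 18.6-fold lower (13.0 to 27.7), from 678 to 31 counts, while the calponin CNN2 was 3.01-fold higher (2.83 to 3.19) and the LIM protein FHL2 2.49-fold higher (2.11 to 2.93). Of the coactivators, MRTFA was also among the higher genes, at 1.65-fold (1.41 to 1.93), but its log2 ratio was -0.02 after GC centring. MRTFB was at 0.814 times the control level (0.644 to 1.03).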

How the data were processed

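Messenger RNA of A549 cells was read by 3' end sequencing in 2 libraries, 1 per treatment. The deposited values are raw whole-number counts for each gene symbol, which the authors did not normalize. Bowtie2, edgeR and build hg19 are named in the submitters' processing notes; their versions and roles, the annotation, the strand setting and the treatment of reads with several positions are not given in the sources here. Rows of 1 symbol were summed (25737 rows, 24462 symbols). Counts were scaled by TMM in edgeR 4.0.16 (R 4.3.3). The log2 ratio is log2 of (CPM + 1) after ADGRF4 siRNA over control, which understates the change of low genes, and printed folds use no pseudocount. Symbols averaging 30 counts or more were compared. A call is by size alone, at 1.5-fold unless another is given. Intervals are exact (Clopper-Pearson) 95% intervals for counting error only, and duplicate molecules could not be removed. GC content comes from the longest transcript of a symbol in GENCODE 29 (GRCh38), found for 97.9% of compared symbols. All 10 genes, and in each list up to 4 compared genes with the largest absolute log2 ratio, were named. Of the lists and markers, 1 list and 1 marker are not reported here. ENO3, MUS81, SNX32, PPT1, TRABD2A and AC022494.1 were added because their exons overlap a member, and MRTFA and MRTFB as the coactivators of SRF. The genes and lists were chosen with earlier results of these data known. Alternatives were total-count, DESeq2 1.42.0 and upper-quartile scaling, other pseudocounts, count limits and folds, GC centring, thinning, the largest row per symbol and added pseudogene rows. The calculations used Python 3.11.15 and were tested on simulated data.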

Additional observations from a re-analysis of the deposited data

How the results depend on the processing

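With 1 library per treatment, no replicate could be left out and no difference was tested. Across 9 alternatives that recompute single ratios, TMSB4X ranged from -4.84 to -4.39 on the log2 scale, PFN1 from -3.72 to -3.38, PFN2 from -1.58 to -1.15, TMSB10 from -1.18 to -0.69 and ACTB from 0.76 to 0.91, each past 1.5-fold under all 9. Taking the largest row per symbol could not move any of the 10 genes, as each has 1 row. Adding pseudogene rows could move only PFN1, CFL1, DSTN and ACTG1, the genes with such rows. CFL1, CFL2, DSTN and ACTG1 kept their direction and stayed inside 1.5-fold, and CAP1 went from 0.07 to -0.08 under total-count scaling. That scaling moved the median of all compared symbols from -0.02 to -0.16. At a fold threshold of 2, 0 of the 10 genes were higher and 3 lower, the pathway lists gave 8 higher and 11 lower, and all compared symbols gave 923 higher and 1219 lower against 2482 and 2624 at 1.5-fold. When the counts of named pseudogene rows were added, DSTN held 36.7% of the cofilin and destrin counts in the control library and 41.6% after ADGRF4 siRNA. GC centring changed the calls within single lists. So did total-count scaling, a larger pseudocount, other count limits and a fold threshold of 2, each for some lists. No other count of the 10 genes, of the lists in sum or of all symbols moved by over 1.5 times. No paired analysis was possible because each treatment has 1 library.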
